A study of Stropharia rugosoannulata with 3 samples.

Results

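The 4 linoleate diol synthase genes of *Stropharia rugosoannulata*, the wine-cap mushroom, are SRUG_08651, SRUG_06857, SRUG_00066 and SRUG_05824. They were taken by gene ID from the linoleate diol synthase group of the study's tree of heme peroxidases, and all 4 were found among the 11750 gene models of the deposited tables. Their expression was measured by RNA-seq in vegetative mycelia on potato dextrose agar at 25 °C. There were 3 replicate libraries of this 1 growth condition. The depth was between 29678333 and 31831513 counts per library. The sample titles name S68, a monokaryotic isolate, whereas the strain label and the paper give the commercial cultivar “Heinong No. 1” from which it was derived. No contrasting group was analysed here, and nothing in the labels states whether the libraries came from separate cultures, so the spread given here is the spread between these libraries and may be technical.

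Linoleate diol synthases are fusion enzymes of fungi. In the ascomycetes where they were characterised, an N-terminal heme dioxygenase domain, related to the animal cyclooxygenases, adds oxygen to linoleic acid, and a C-terminal cytochrome P450 domain converts the resulting hydroperoxide to a dihydroxy fatty acid. The products belong to the oxylipins, and in *Aspergillus* the related Ppo enzymes influence the balance between sexual and asexual sporulation. The family is placed among heme peroxidases because of its dioxygenase domain. The substrate and product of each *S. rugosoannulata* enzyme were not determined in these data, and its sequence was not used here.

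All 4 genes were expressed in every library, at levels that spanned a wide range. SRUG_08651 was far above the others. SRUG_06857 lay near the middle of all gene models, and SRUG_00066 and SRUG_05824 lay below the median. Levels are given as the FPKM computed by the authors, a fragment number adjusted for gene length and sequencing depth.

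SRUG_08651 had 127, 133 and 376 FPKM in libraries 1, 2 and 3. The underlying counts were 13793, 13745 and 38056, and the mean was 212 ± 142 FPKM (SD, n = 3). Libraries 1 and 2 were nearly equal and library 3 stood apart from both. By FPKM the gene ranked 1317, 1155 and 348 among all gene models in libraries 1, 2 and 3, where rank 1 is the highest. Its mean exceeded that of 94.1% of gene models. Without library 3 the mean was 130 FPKM and exceeded 89.5%.

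SRUG_06857 had 13.7, 30.2 and 20.8 FPKM in libraries 1, 2 and 3, from 1629, 3439 and 2318 counts. Its mean was 21.6 ± 8.29 FPKM (SD, n = 3), above 47.6% of gene models. Library 2 was the highest of the 3 and library 1 the lowest, so its highest library was not that of SRUG_08651.

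SRUG_00066 had 7.36, 11.1 and 8.20 FPKM from 814, 1167 and 845 counts in libraries 1, 2 and 3. Its mean was 8.87 ± 1.94 FPKM (SD, n = 3), above 31.1% of gene models. Libraries 1 and 3 were close to each other, and library 2 was somewhat higher.

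SRUG_05824, the lowest of the family, had 4.07, 9.29 and 5.95 FPKM from 451, 982 and 615 counts in libraries 1, 2 and 3. Its mean was 6.44 ± 2.64 FPKM (SD, n = 3), above 27.6% of gene models. It followed the same order of libraries as SRUG_06857, with library 2 highest and library 1 lowest.

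**Figure D1:**
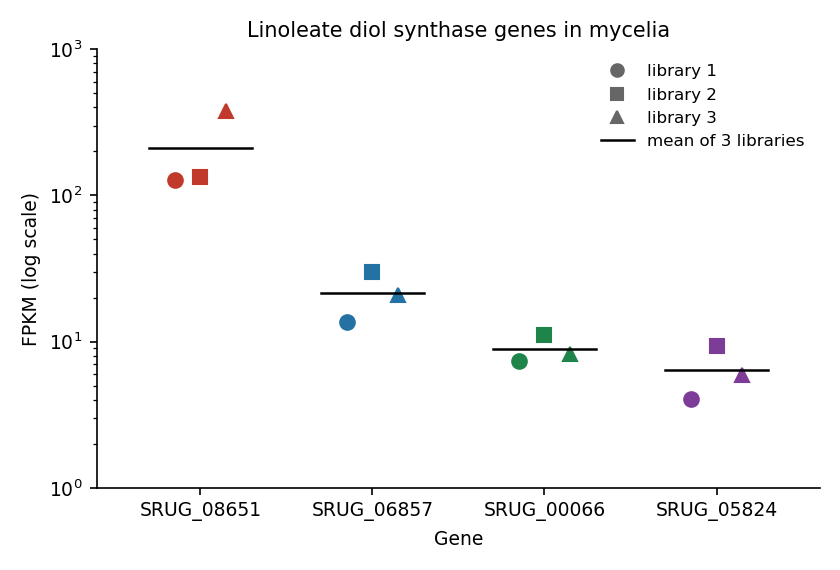
FPKM (y axis, log scale) of the 4 linoleate diol synthase genes (x axis). Each symbol is 1 of the 3 libraries of mycelia on potato dextrose agar and the bar is the mean; SRUG_08651 lies between 127 and 376 FPKM, and the other genes between 4.07 and 30.2.

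The order SRUG_08651, SRUG_06857, SRUG_00066, SRUG_05824 held in each of the 3 libraries. SRUG_08651 was 9.31, 4.40 and 18.1 times SRUG_06857 in libraries 1, 2 and 3, and the difference of their means, 190 FPKM, was larger than the SD of either gene. SRUG_06857 was 1.86, 2.73 and 2.54 times SRUG_00066, and the difference of 12.7 FPKM was likewise larger than both SDs. The last pair was not resolved in this way, although SRUG_00066 was the higher in each library. SRUG_00066 was 1.81, 1.19 and 1.38 times SRUG_05824, but the difference of 2.44 FPKM was smaller than the SD of SRUG_05824, and the ranges of the genes overlapped. These SDs describe each gene over the libraries, not the difference between genes within a library. No test was run.

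The 4 genes had in common a large number of counts per FPKM, which is larger for a longer gene. The number was 2.36, 2.59, 2.40 and 2.41 times that of the median gene for SRUG_08651, SRUG_06857, SRUG_00066 and SRUG_05824. Each exceeded between 92.3% and 94.4% of the 8286 gene models that reached 200 counts in all 3 libraries. The genes therefore ranked higher when length was not corrected for. By CPM, counts relative to the library total after TMM scaling, a method that aligns the bulk of genes, they exceeded 98.9%, 73.0%, 48.4% and 41.4% of gene models in the same order.

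SRUG_08651 carried most of the signal of the family. It held 83.5%, 72.4% and 91.5% of the summed FPKM of the 4 genes in libraries 1, 2 and 3. The lowest share was thus in library 2 and the highest in library 3. Of the summed counts it held 82.7% (95% exact Clopper-Pearson interval 82.1% to 83.2%), 71.1% (70.5% to 71.7%) and 91.0% (90.7% to 91.2%) in the same libraries. The intervals do not overlap between libraries, but they cover counting error only and take each count as independent. If 1 fragment gave 2 counts, they would be too narrow.

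SRUG_06857 held 8.97%, 16.5% and 5.07% of the summed FPKM in libraries 1, 2 and 3. SRUG_00066 held 4.83%, 6.04% and 1.99%, and SRUG_05824 held 2.68%, 5.07% and 1.45%. Each of the 3 smaller shares was at its highest in library 2 and at its lowest in library 3.

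Both parts of the sum moved. The summed FPKM of the 3 lower genes was 25.1, 50.5 and 35.0 in libraries 1, 2 and 3, so that the share of SRUG_08651 was low in library 2, although its own level there was close to that in library 1. The sum over all 4 genes was 152, 183 and 411 FPKM. From library 2 to library 3 the sum increased through SRUG_08651 alone, since each of the 3 other genes was lower in library 3.

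**Figure D2:**
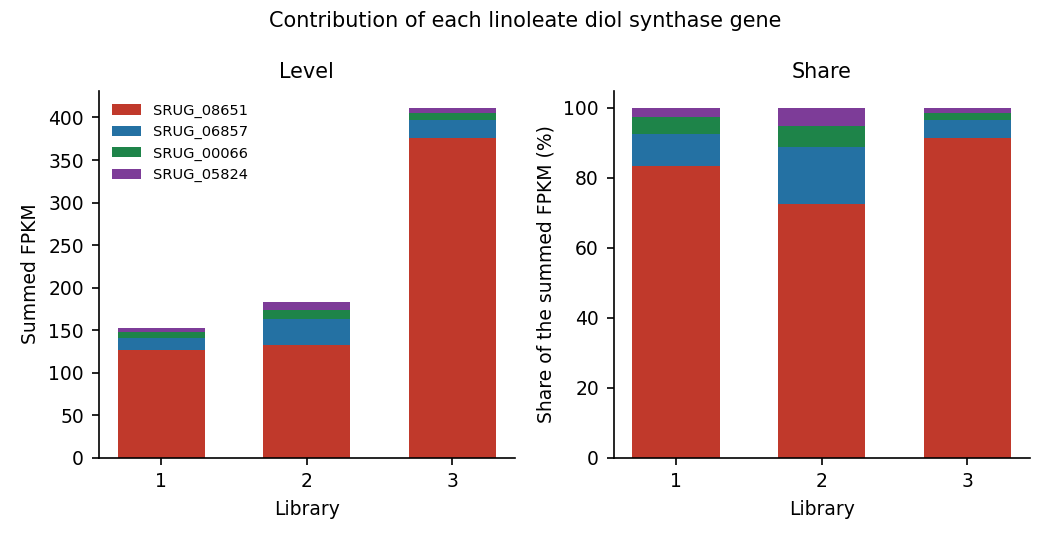
Summed FPKM of the 4 linoleate diol synthase genes (left) and the share of each gene in that sum in % (right), by library (x axis); the colours stand for the genes. SRUG_08651 holds between 72.4% and 91.5% of the sum, and the column of library 3 reaches 411 FPKM against 152 and 183.

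How far library 3 departed from the other libraries was measured as the TMM-normalized CPM in library 3 divided by the mean of libraries 1 and 2. For SRUG_08651 the CPM were 463, 433 and 1247 in libraries 1, 2 and 3, and the ratio was 2.78. For SRUG_06857, SRUG_00066 and SRUG_05824 the ratios were 0.93, 0.86 and 0.87, and against library 1 alone they were 1.39, 1.01 and 1.33, so these 3 genes were lower in library 3 only where library 2 was part of the reference. Thus 1 of the 4 genes was at least 2-fold higher in library 3, a ratio reached by 2.18% of the 9784 gene models with a mean FPKM of 1 or more, called expressed below. The median ratio over these models was 0.97. The family was proposed with this increase known, so the ratio is a description of these libraries, and no p-value was computed.

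The gene was next set beside genes of similar level. There were 2148 gene models whose mean FPKM in libraries 1 and 2 lay within 2-fold of that of SRUG_08651 (130 FPKM), that is, between 65.0 and 260 FPKM. The quartiles of their ratios were 0.82 and 1.07, and 95% of the ratios lay between 0.55 and 1.71. Only 32 of them, or 1.49%, reached 2, and SRUG_08651 ranked 7 of 2148. Libraries 1 and 2 enter both the level and the ratio, so a low value in either of them raises the ratio.

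The 6 genes ranked above SRUG_08651 differed from it in 1 respect. All 6 were lower in library 2 than in library 1, by between 2.26-fold and 14.1-fold, whereas libraries 1 and 2 differed by 1.07-fold for SRUG_08651. The highest, SRUG_06984, had 225, 45.7 and 774 FPKM in libraries 1, 2 and 3. SRUG_08458 had 203, 16.0 and 449 FPKM, and SRUG_08857 had 344, 107 and 876. For these 3 genes library 2 was the lowest and library 3 the highest.

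SRUG_06636 had 127, 22.9 and 241 FPKM in libraries 1, 2 and 3. SRUG_07298 had 110, 54.1 and 252 FPKM in the same order. SRUG_02196, the last of the 6, had 328, 150 and 736 FPKM. All 3 again had their lowest value in library 2.

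When the higher of libraries 1 and 2 was taken as the reference, a choice made after these values were seen, the ratio of SRUG_08651 was 2.69 and ranked 2 of 2148, below SRUG_06984 (3.14). Among the 712 genes of similar level whose libraries 1 and 2 lay within 1.2-fold of each other, also chosen afterwards, it was the highest of 7 genes with a ratio of at least 2. SRUG_08651 thus combined 2 nearly equal libraries with library 3 standing apart.

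**Figure D3:**
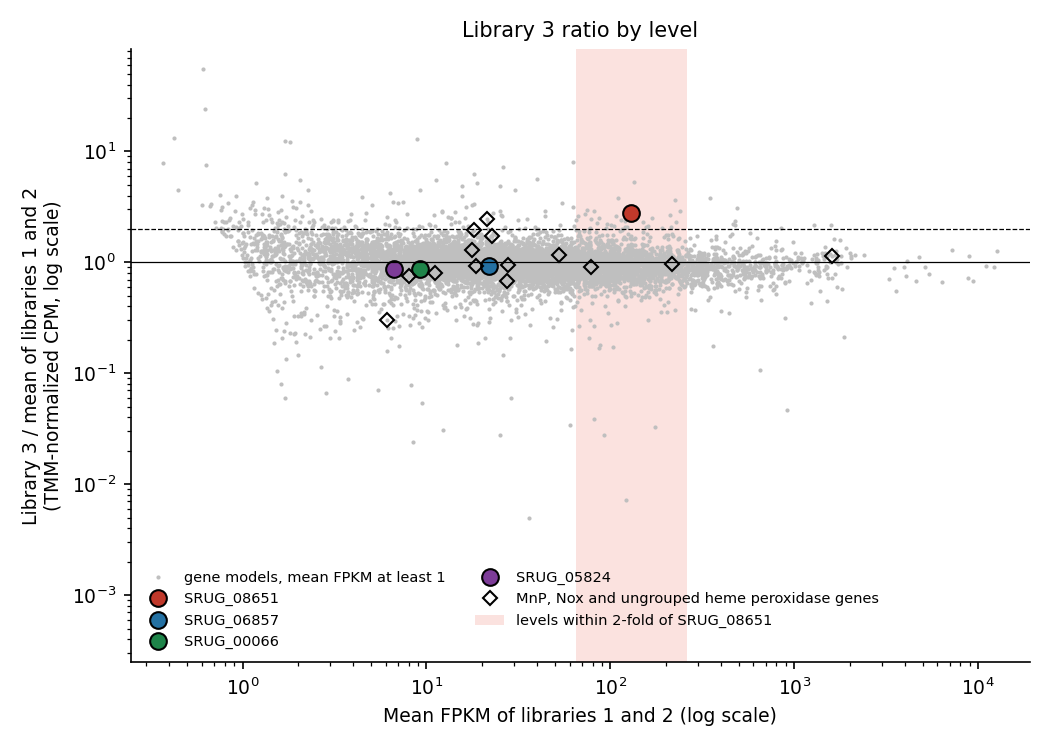
Ratio of library 3 to the mean of libraries 1 and 2 (y axis, TMM-normalized CPM, log scale) against the mean FPKM of libraries 1 and 2 (x axis, log scale) for 9772 of the 9784 expressed gene models; the 12 with a ratio of 0 or no reference level are not drawn. SRUG_08651, at 2.78, lies above the dashed line at 2 within the shaded band of similar levels, the 3 other genes lie just below 1, and the diamonds are the MnP, Nox and ungrouped heme peroxidase genes.

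The spread over all 3 libraries was computed from the same values as the ratio, so it describes the same increase and adds no separate evidence. The relative SD of the TMM-normalized CPM of SRUG_08651 was 64.6%, more than that of 96.9% of the 1275 genes within 2-fold of its mean FPKM (median 21.2%). Without library 3 it was 4.78%. SRUG_06857 had a relative SD of 33.9% and SRUG_05824 one of 36.5%, above 85.2% and 69.6% of genes near their own levels. SRUG_00066 was the steadiest, with 17.5%, above 33.7% of such genes.

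The 3 other genes had their highest TMM-normalized CPM in library 2, as had 37.6% of the expressed gene models, whereas SRUG_08651 had its highest in library 3, as had 27.5%. In library 2, SRUG_06857, SRUG_00066 and SRUG_05824 were 1.66, 1.34 and 1.75 times the mean of the other libraries. None of the 4 genes reached 2 there, against 5.47% of expressed gene models, and none did in library 1, against 2.45%. The library 2 ratio of SRUG_06857 exceeded 91.5% of those of genes near its level, and the ratios of SRUG_00066 and SRUG_05824 exceeded 71.2% and 83.9%. A highest value in library 2 was thus frequent among all genes, and nothing is read from its being shared by 3 members.

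The gene models most alike to each member over the 3 libraries were also listed. Likeness was measured as the Euclidean distance of log2(FPKM + 1) over the 3 libraries, which takes in both level and course. The nearest to SRUG_08651 was SRUG_08534, at a distance of 0.31, with 140, 161 and 363 FPKM in libraries 1, 2 and 3. Like SRUG_08651 it lies on contig 10 (model 19), and its library 3 ratio was 2.32. SRUG_06807 followed at 0.63, with 135, 94.3 and 287 FPKM and a library 3 ratio of 2.38. SRUG_03230, at 0.64, had 137, 102 and 264 FPKM, with library 3 again the highest. In SRUG_06807 and SRUG_03230 library 2 was below library 1, which was not so for the FPKM of SRUG_08651. Contig 10 as a whole was not richer in such genes, as 13 of its 625 expressed models (2.08%) were at least 2-fold higher in library 3.

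The nearest models to the 3 lower genes were closer still, because many models share those levels. They were SRUG_11467, SRUG_04011 and SRUG_00158 for SRUG_06857, at distances of 0.07 to 0.10. For SRUG_00066 they were SRUG_10320, SRUG_01544 and SRUG_11558, at 0.07 to 0.09. For SRUG_05824 they were SRUG_08567, SRUG_03236 and SRUG_07894, at 0.08 to 0.11. Within the family SRUG_00066 and SRUG_05824 were the nearest pair, at 0.86, and SRUG_08651 and SRUG_06857, the highest 2, were 5.58 apart. With 3 libraries of 1 condition, such likeness is a description only.

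The 4 genes lie on 4 different contigs and are not neighbours of each other. SRUG_08651 is model 141 of contig 10, SRUG_06857 model 436 of contig 7, SRUG_00066 model 68 of contig 1 and SRUG_05824 model 79 of contig 6. None is close to the first or last model of its contig, the nearest being SRUG_00066 with 65 models before it. The 5 neighbouring gene models before and the 5 after each gene were examined, 40 in all, of which 34 (85.0%) were expressed, against 83.3% of all gene models. Their coordinates and annotation were not used here.

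SRUG_08651 lay among expressed models. All 10 of its neighbours were expressed, from 18.8 FPKM (SRUG_08650, the model just before it) to 269 (SRUG_08654), with a median of 52.0. The model just after it, SRUG_08652, had 74.0, 85.0 and 70.9 FPKM in libraries 1, 2 and 3. SRUG_08650 had 14.3, 22.5 and 19.7 FPKM. The library 3 ratios of the 10 neighbours ranged from 0.78 to 1.22 with a median of 1.00. The departure of library 3 was thus seen in SRUG_08651 and in none of the 10 models around it. Only 2.18% of all expressed gene models reached a ratio of 2, so its absence from 10 models is not particular to this place. With 10 models on each side the highest ratio was 1.66.

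The surroundings of SRUG_06857 were uneven. Of its 10 neighbours 9 were expressed, with a median of 9.27 over the 10. The model before it, SRUG_06856, had 163 ± 13.5 FPKM, and SRUG_06859, next but one after it, had 454 ± 70.5 FPKM (SD, n = 3 each). Between them lay SRUG_06858, directly after SRUG_06857, with 4, 0 and 22 counts and a mean of 0.32 FPKM, the lowest of the 10. Its library 3 ratio of 10.7 rests on these few counts, and the other 9 ratios lay between 0.52 and 1.31.

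The nearest models to SRUG_00066 were mostly weakly expressed. The median of its 10 neighbours was 2.09 FPKM, 7 of them were below SRUG_00066 itself, and SRUG_00062 was the lowest at 0.89 ± 0.04 FPKM (SD, n = 3). With 10 models on each side the median was 7.48 FPKM, and only 10 of the 20 were below SRUG_00066. SRUG_00065, the model before it, had 15, 4 and 14 counts in libraries 1, 2 and 3. Of the 5 models after SRUG_00066, only SRUG_00067 and SRUG_00068 were higher than it. SRUG_00067 had 40.8 ± 11.9 FPKM and SRUG_00068, the highest of the 10, had 152 ± 39.6 FPKM (SD, n = 3 each), and both were at their lowest in library 2, where SRUG_00066 was at its highest. The library 3 ratios of its 9 expressed neighbours ranged from 0.61 to 1.63.

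The surroundings of SRUG_05824 held the most silent models. Of its 10 neighbours 6 were expressed, and SRUG_05823 and SRUG_05822, the models directly before it, and SRUG_05819 had no count in any library. A count of 0 allows up to 3 fragments at 95% confidence. If each fragment gave 2 counts, this would be 6 counts, or 0.188 to 0.202 CPM. Of the low counts (1 to 10) 67.7% were even numbers and the rest odd, so 2 counts per fragment is an assumption. Among the 10 models on each side, 5 of 20 had no count, against 1256 of the 11750 gene models. On contig 6 as a whole 76.8% of models were expressed, against 83.3% of all gene models. The model after SRUG_05824, SRUG_05825, had 2.01 ± 0.79 FPKM (SD, n = 3).

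Some models around SRUG_05824 varied between libraries. SRUG_05827, 3 models after it and the highest of the 10, had 62.5, 139 and 225 FPKM in libraries 1, 2 and 3. Its library 3 ratio of 2.19 made it the only 1 of the 34 expressed neighbours of the 4 genes to reach 2. Among all expressed gene models 2.18% did so. The call for SRUG_05827 rested on library 1, since its ratio was 3.27 against library 1 alone and 1.64 against library 2 alone. Against library 2 alone, SRUG_00065 (3.64, from 4 and 14 counts) and SRUG_00069 (2.92), both beside SRUG_00066, reached 2 instead, and against library 1 alone SRUG_05825 (2.09) did so as well as SRUG_05827. SRUG_05820 went the other way, with 57, 32 and 4 counts and a ratio of 0.09. SRUG_05824 itself followed neither.

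**Figure D4:**
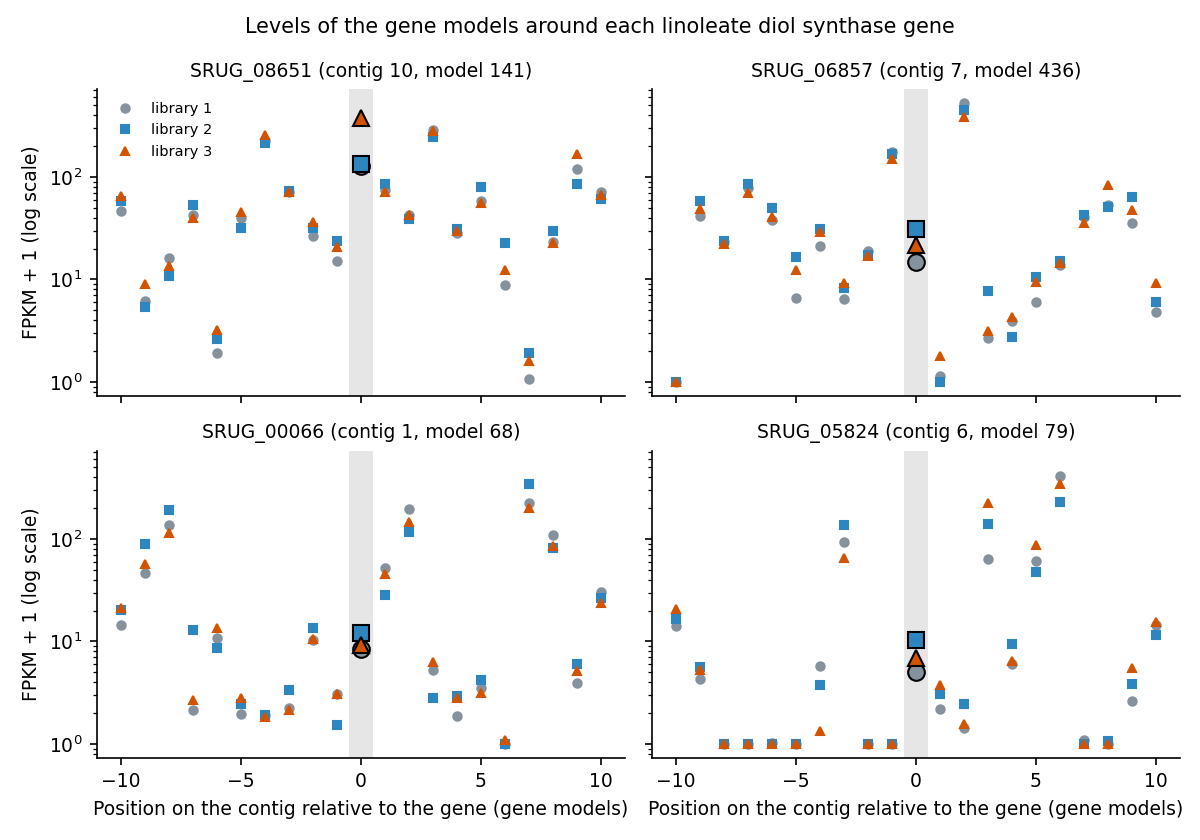
FPKM + 1 (y axis, log scale) of the 10 gene models on each side of each linoleate diol synthase gene (x axis, position in gene models, with the gene itself at 0 on grey in large symbols); symbols and colours stand for the 3 libraries. Library 3 departs at SRUG_08651 (376 against 127 and 133 FPKM) and not at the models beside it, and 5 of the 20 models around SRUG_05824 had no count.

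The same ratio was read in 22 other genes of the study's tree, from 3 of its groups, and 1 of them reached 2. The heme-thiolate peroxidase and the hybrid ascorbate-cytochrome c peroxidase genes of that tree were not examined here. Of the manganese peroxidase (MnP) genes, which encode enzymes that oxidise manganese ions in lignin breakdown, 9 of 17 were expressed. The ratios of these 9 ranged from 0.31 to 1.96, and none reached 2. The paper counts more of the 17 as expressed in the mycelia, by a cut that its text does not state. The 2 NADPH oxidase (Nox) genes, whose products make superoxide, had ratios of 1.13 (SRUG_01647) and 0.96 (SRUG_09509).

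The 3 heme peroxidase genes that the study's tree puts in no named family were SRUG_01177, SRUG_06581 and SRUG_08269, with ratios of 0.91, 1.29 and 2.48. SRUG_08269 had 20.1, 22.4 and 54.8 FPKM in libraries 1, 2 and 3, from 1029, 1098 and 2617 counts. As for SRUG_08651, libraries 1 and 2 were close to each other and library 3 was above both. In all, 1 of the 14 expressed genes of these groups reached a ratio of 2, against 2.18% of gene models. SRUG_08269 is model 354 of contig 9, and no member of the 4 lies on that contig.

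**Figure D5:**
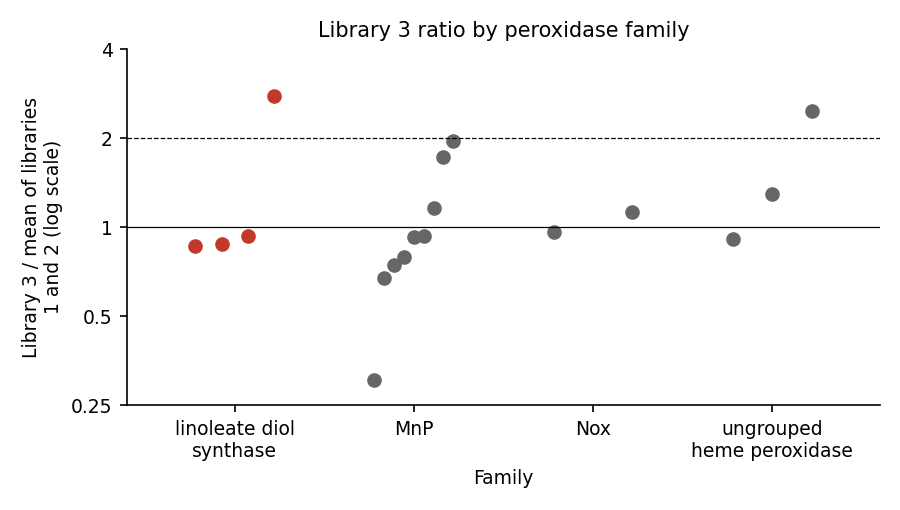
Ratio of library 3 to the mean of libraries 1 and 2 (y axis, TMM-normalized CPM, log scale) for the 4 linoleate diol synthase genes and for the MnP, Nox and ungrouped heme peroxidase genes that were expressed (x axis); each point is 1 gene and the dashed line marks 2. SRUG_08651 (2.78) and SRUG_08269 (2.48) are the points above that line.

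By level, SRUG_08651 was close to the Nox gene SRUG_09509 (217 ± 33.3 FPKM) in the mean only. SRUG_09509 had 184, 251 and 217 FPKM, above SRUG_08651 in libraries 1 and 2 and below it in library 3. The other Nox gene, SRUG_01647, was far higher (1694 ± 234 FPKM). SRUG_08651 was above SRUG_01177, the highest of the ungrouped genes (77.4 ± 3.18 FPKM), in every library. It was also above SRUG_07850, the highest MnP gene (56.9 ± 19.5 FPKM; SD, n = 3 each), in every library. Reads that fit more than 1 member of a family could be divided between its genes, and how such reads were treated is unknown from the sources used.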

How the data were processed

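The deposited count tables hold unnormalized whole numbers for genes and for transcripts, and the deposited FPKM tables, made by the authors, are adjusted for length and depth. The members of each pair of tables differed in 0 cells. The submitters' processing notes name fastp, HISAT2 and StringTie, without version or role. The counting rule, the use of strand and the FPKM denominator are unknown from the sources used. Columns were matched to libraries by the label in the sample titles. Counts summed to 31831513, 30516180 and 29678333. Contig and model number come from the gene names.

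Counts were scaled with TMM in edgeR 4.0.16 (R 4.3.3), with DESeq2 1.42.0 size factors as the alternative. Python 3.11.15, pandas 2.3.3, NumPy 2.4.6, SciPy 1.17.1 and matplotlib 3.10.9 were used, and the code that computes the library 3 ratio was checked on simulated counts, which is no test of the data. Other units, scalings, filters, references, level windows and each library left out were tried.

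Named genes are the members, the models next to them, the highest and lowest of the 5 models on each side and those with a ratio of at least 2 or at most 0.5, the 3 most alike genes for each member, the 5 genes of similar level with the highest ratios, the Nox and ungrouped heme peroxidase genes, and MnP genes with a ratio of at least 2. SRUG_02196, SRUG_07850, SRUG_00069 and, in the models with no count, SRUG_05819 and SRUG_05822 fall outside this rule and were picked from their values. The members, gene lists and rules were chosen with earlier results of these data known.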

Additional observations from a re-analysis of the deposited data

How the results depend on the processing

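By TMM-normalized CPM, which is not corrected for length, the 4 genes ranked above more gene models, namely 98.9% for SRUG_08651, 73.0% for SRUG_06857, 48.4% for SRUG_00066 and 41.4% for SRUG_05824. Among expressed genes only, the shares were 37.1%, 17.3% and 13.0% for the last 3. Leaving out each library in turn gave 89.5% to 95.4% for SRUG_08651. The library 3 ratio of SRUG_08651 ranged from 2.69 to 2.90 over its alternatives. Its ratio exceeded 98.8% of genes of similar level without library 1 and 99.9% without library 2. It exceeded between 99.5% and 99.8% under other windows, units and scalings, and with the references chosen after seeing the data 99.95% (the higher of libraries 1 and 2) and 100% (libraries 1 and 2 within 1.2-fold). The number of genes at least 2-fold higher in library 3, 213 as reported, was 122 at a mean FPKM of at least 5, 356 with no filter and 60 at 3-fold. It was 358 to 464 with library 2 or library 1 left out, and 118 with the higher of libraries 1 and 2 as the reference, chosen after seeing the data. With 10 models on each side, 95% of those around SRUG_08651 were expressed. Around SRUG_05824 the share was 60% to 70% with 1 library left out. Of the expressed models around all 4 genes, 1 reached a ratio of 2 as reported (SRUG_05827), 2 others did without library 1 (SRUG_00065 and SRUG_00069), and 2 did without library 2 (SRUG_05825 and SRUG_05827). The relative SD was 0.915% for SRUG_00066 and 20.1% for SRUG_05824 without library 2. Without library 2 the library 3 ratios of SRUG_06857, SRUG_00066 and SRUG_05824 turned from 0.93, 0.86 and 0.87 to 1.39, 1.01 and 1.33. The mean of SRUG_08651 was 130 FPKM without library 3, against 212. The 3 libraries of 1 condition limit every spread given. With 1 group there were no samples to pair between groups, and differences between genes within a library were not tested.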
